A study of Arabidopsis thaliana with 6 samples.

Results

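The plastid-encoded photosynthesis genes are the genes of the chloroplast genome that encode subunits of photosystem I, photosystem II, the cytochrome b6f complex, the ATP synthase, the NDH complex and the large subunit of Rubisco. The members were all genes of the plastid chromosome whose symbol starts with psa, psb, pet, atp or ndh, and rbcL, that had a probe set of their own on the array. The 6 genes psaC, ndhA, ndhD, ndhE, ndhG and ndhI were left out by this rule. It gave 37 genes with 1 probe set each, out of 69 chloroplast genes measured in this way, on an array of 22810 probe sets. There were 15 members of photosystem II, 6 of cytochrome b6f, 6 of the ATP synthase, 5 of NDH, 4 of photosystem I, and rbcL. A further gene that meets the rule on symbols, ndhB, shares its probe set with its second copy and is not a member.

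Affymetrix ATH1 arrays measured poly-A RNA of Arabidopsis thaliana in 3 samples of phloem exudate and 3 of tissue cut out of the phloem by laser microdissection and pressure catapulting (LMPC). Exudate is the fluid that leaves severed phloem, collected here in the calcium chelator EDTA. All plants grew with 8 h of light at 22 °C and 16 h of darkness at 16 °C until flowering, received no treatment, and are described by no ecotype or genotype in the labels. Exudate RNA went through repeated linear amplification and LMPC RNA through a different kit with 10 cycles of PCR, so kit and sample type cannot be told apart. The labels do not say that replicates came from separate plants, so a p-value here reflects the spread between these samples alone, which may be technical.

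Photosystem II splits water and passes electrons through cytochrome b6f to photosystem I, while the NDH complex returns electrons around photosystem I, the ATP synthase uses the proton gradient, and Rubisco fixes carbon dioxide. Each complex mixes subunits made from plastid genes with subunits imported from nuclear genes. Plastid genes are mostly transcribed in operons, whose long primary transcripts are cut and trimmed into smaller RNAs. Mature plastid messengers as a rule carry no lasting poly-A tail, and tails added to them mark RNA for decay. Mature sieve elements keep a plastid of their own kind that does no photosynthesis, and companion cells and phloem parenchyma hold plastids too.

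As deposited, 20 of the 37 genes were lower in exudate than in LMPC phloem and 1, rbcL, was higher. A further 14 were tested and not called, and ndhF and ndhH were not tested. Calls are limma's at a Benjamini-Hochberg adjusted p under 0.05 over all 15320 tested probe sets, of which 16.6% were called lower and 8.51% higher. Probe sets entered the test if their MAS5 signal, the deposited intensity, passed the 40th percentile of an array in 3 or more of the 6. Of the 35 members that passed, 23 did so on all 6 arrays, and psaI passed through the LMPC arrays alone, so that it had to differ; leaving it aside, 19 of 34 tested members were lower. Without regard to this filter, all 3 exudate values lay below all 3 LMPC values for 21 of the 37 genes, and above them for rbcL. Over all 22746 probe sets that are not controls these shares were 26.5% and 8.74%.

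The median difference of the 37 genes was -1.50, taken as exudate minus LMPC phloem of log2(signal + 16), against -0.27 for all tested probe sets. All differences below are on this scale, which understates the change of a gene whose signal is near or under 16 in either group. The median lay at -2.73 in photosystem I, -1.89 in photosystem II, -1.24 in cytochrome b6f, -1.14 in the ATP synthase and -0.27 in NDH, which turned to 0.10 after scaling to the spike-in controls. Without LMPC array 1 the median was -0.64 in the ATP synthase and -0.12 in NDH. The NDH median as deposited is the value of ndhH, which, like ndhF, was too dim to be tested. The middle value of the 3 tested NDH genes was -0.71, that of ndhK. The complexes also differed in how many members were bright, here above the 75th percentile of all 3 LMPC arrays. These were 3 of 4 in photosystem I, 12 of 15 in photosystem II and 3 of 6 in cytochrome b6f. In the ATP synthase they were 3 of 6, and in NDH 2 of 5. The part of dim probe sets in the order of the medians was not tested. Differences between complexes were not tested, since genes that share transcripts are not replicates. In bulk RNA, fewer chloroplast-bearing cells and less of a transcript per cell cannot be told apart.

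**Figure D1:**
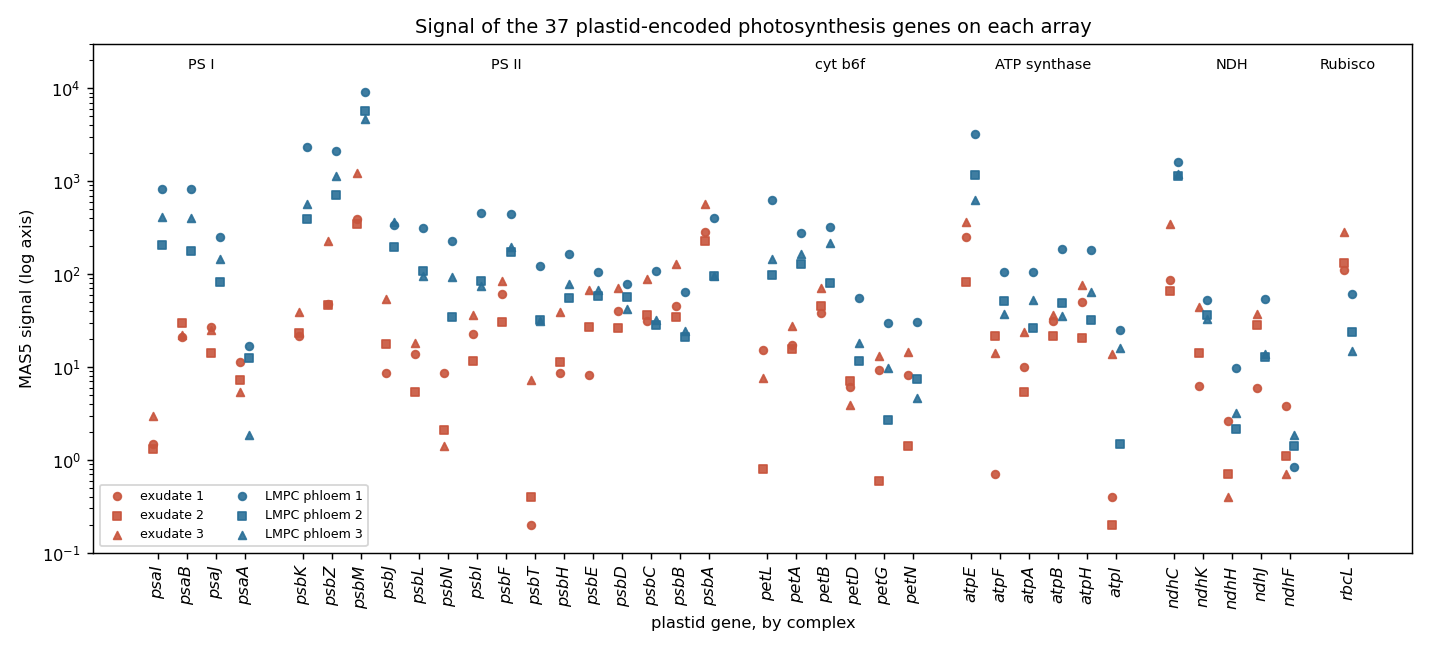
MAS5 signal (log axis) of each of the 37 genes on the 3 exudate arrays (orange) and the 3 LMPC arrays (blue), grouped by complex and, within a complex, ordered by the difference between the groups. For psaI, psbK and psaB the groups lie far apart, for psbC they overlap, and for rbcL the exudate points lie above; LMPC array 1 (blue circles) is the highest LMPC point for 35 of the 37 genes.

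LMPC array 1 stood above the other LMPC arrays for chloroplast genes in general. It had the highest LMPC signal for 35 of the 37 genes, where it did so for 42.5% of all tested probe sets. Its log2(signal + 16) exceeded the mean of the other LMPC arrays by a median of 1.17 over the members and 0.12 over all tested probe sets. The 32 other chloroplast genes showed the same order, with LMPC array 1 highest for 31 and a median excess of 1.06. The median member signal was 182 on LMPC array 1, 55.9 on array 2 and 68.1 on array 3. In exudate, array 3 was highest for 28 of the 37 genes and for 52.5% of all tested probe sets, and the median member signals were 15.4, 17.6 and 36.6 on arrays 1, 2 and 3. Without LMPC array 1 the median difference was -1.16, with 18 genes lower and psbA and rbcL higher; without exudate array 3 it was -1.59, with 22 genes lower.

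Nuclear photosynthesis genes, which mark green leaf cells, were also highest on these arrays within each group. The 14 that could be measured of 66 listed summed to 3265, 2968 and 5469 on exudate arrays 1, 2 and 3 and to 9132, 4211 and 2696 on LMPC arrays 1, 2 and 3, and none was at 0. LMPC array 1 was the highest LMPC array for 12 of these 14, and exudate array 3 the highest exudate array for 12. The part of such cells in the differences between exudate and LMPC phloem was not tested. Phloem markers were measured through 3 of 8 listed genes, of which 2 were lower in exudate and 1 higher, and the defining sucrose carrier gene SUC2 was not analysed here. CLE41 and CLE44 encode peptides made in phloem. CLE41 had a mean signal of 209 ± 97.8 in LMPC phloem and 39.7 ± 23.4 in exudate (mean ± SD over the 3 arrays of a group, as elsewhere). CLE44 went the other way, with 31.3 ± 13.5 and 79.2 ± 25.9 (+1.01, limma adjusted p = 0.0325). SWEET11, a sugar exporter gene, had 57.8 ± 19.5 and 16.7 ± 8.52, and IRX10 of xylem walls had 75.2 ± 8.88 and 27.5 ± 9.99. Trimmed mean signals of whole arrays ran from 17.4 to 27.3 in exudate and from 22.3 to 28.0 in LMPC phloem. The 3' to 5' signal ratio of the GAPDH control transcript ran from 5.99 to 34.7 in exudate and from 36.8 to 48.6 in LMPC phloem, and that of the actin control from 12.5 to 73.4 and from 4.87 to 6.63. The part of RNA length or kit in the results was not tested.

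In photosystem II, limma called 10 of 15 genes lower in exudate and 0 higher (1 higher at an unadjusted p under 0.05). psbA, psbB, psbC and psbD, which encode the reaction centre proteins D1 and D2 and the inner antenna proteins CP47 and CP43, were not among the 10. psbA gave signals of 284, 229.6 and 573 on exudate arrays 1, 2 and 3 and of 403, 95.0 and 95.0 on LMPC arrays 1, 2 and 3. Its groups overlapped through LMPC array 1 alone, and its difference was +1.02 (95% interval 0.08 to 1.97, limma adjusted p = 0.104). Without LMPC array 1 psbA was called higher (+1.66, adjusted p = 0.00329), and likewise after quantile normalization (+1.17, 0.0193) and median centring (+1.60, 0.00627). Without exudate array 3 it fell to +0.65 (adjusted p = 0.289).

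psbD had 39.9, 26.0 and 70.6 in exudate and 78.3, 56.3 and 42.6 in LMPC phloem. For psbC the signals were 31.1, 36.6 and 87.6 in exudate and 107, 28.4 and 32.3 in LMPC phloem. The arrays of the groups were interleaved for these genes. The differences were -0.32 for psbD (95% interval -1.03 to 0.38) and -0.01 for psbC (-0.85 to 0.82). psbB, at 45.5, 34.3 and 128.8 in exudate against 63.7, 21.0 and 24.4, differed by +0.64 (adjusted p = 0.255), and after median centring it was called higher (+1.08, adjusted p = 0.0379). Without exudate array 3 psbB stood at +0.18 (adjusted p = 0.765).

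The other 11 photosystem II genes are psbN, whose product acts in assembly, and 10 genes of small proteins of the complex. Of these, 10 were lower in exudate, with differences from -1.69 for psbH to -4.25 for psbK. The split of psbA, psbB, psbC and psbD from the other 11 was made after the values were seen, so it is a description. psbK, a small subunit near the inner antenna, had 21.4, 23.2 and 39.0 in exudate and 2327, 390.2 and 570.3 in LMPC phloem. Every LMPC array was far above every exudate array, and LMPC array 1 was the highest by a wide margin. The difference of psbK was -4.25 ± 0.47 (SE, adjusted p = 2.16e-06).

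psbZ, which helps to hold the antenna to the core, had 48.1, 46.4 and 228 in exudate against 2124, 712 and 1145 (-3.62, adjusted p = 1.39e-05). psbM, a subunit at the interface of the photosystem II dimer, had 390.5, 347 and 1221 against 9127, 5708 and 4650 (-3.46, 5.57e-06). The groups stayed apart in both genes although exudate array 3 was several times higher than the other exudate arrays. psbM was bright in exudate as well, above the 75th percentile of every array, so its lower value there was measured well above the dim range. Signals of psbK, psbZ and psbM are not set against each other here, since each probe set has its own response.

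psbJ (-2.98), psbL (-2.57), psbN (-2.47), psbI (-2.09), psbF (-1.89), psbT (-1.89) and psbH (-1.69) completed the 10, with adjusted p-values between 1.14e-05 and 0.00346. psbE and psbF encode the chains of cytochrome b559. psbE, at 8.2, 27.0 and 68.0 in exudate against 106, 57.5 and 68.1, missed the threshold (-1.04, adjusted p = 0.0588), and its groups overlapped through exudate array 3. Without that array it was called lower (-1.50, adjusted p = 0.00339), and without exudate array 1 it stood at -0.60 (0.317). The call of psbI did not survive a pseudocount of 64, nor testing all probe sets with no filter, and its difference was -1.32 without LMPC array 1.

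Photosystem I gave 3 lower genes of 4. psaI, a small membrane subunit, had 1.5, 1.3 and 3.0 in exudate and 826, 204 and 416 in LMPC phloem. It lay under the 40th percentile of every exudate array and above the 75th of every LMPC array. Its exudate signal therefore has only a bound here, and its call follows in part from the filter. As deposited, the LMPC signal of psaI was 66.2-fold the 40th percentile of the exudate arrays (geometric means), which is no detection limit. That figure is no firm bound, since it takes the deposited scale of the arrays as given. The spike-in controls were brighter on the LMPC arrays, with mean log2 signals of 10.038 to 10.615 against 8.451 to 9.455 in exudate. The fitted difference, -4.59 with a pseudocount of 16, was -7.18 with one of 1 and -2.88 with one of 64. With any LMPC array left out psaI no longer passed the filter and was not tested.

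psaB, which encodes a partner in the reaction centre pair of photosystem I, had 21.0, 29.6 and 21.9 in exudate against 826, 178 and 399.6 (-3.35, adjusted p = 7.03e-06). The exudate values were close together and all far below the LMPC values. psaA encodes the other partner and had 11.3, 7.3 and 5.4 against 16.8, 12.5 and 1.87, which were dim in both groups and overlapped. Its difference was -0.10 (adjusted p = 0.85), and signals this dim leave no room on this scale for a fall like that of psaB. psaJ, a further small subunit, was lower by -2.12 (adjusted p = 0.000259).

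**Figure D2:**
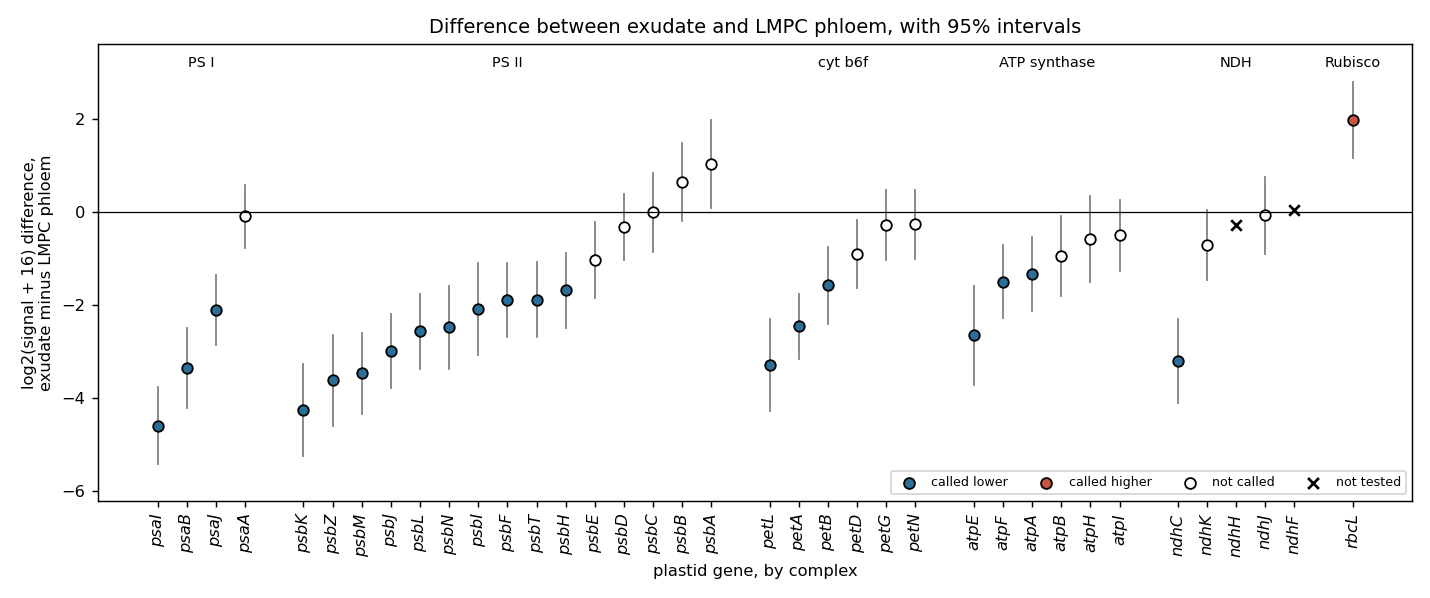
Log2(signal + 16) difference, exudate minus LMPC phloem, of each member with limma's 95% interval, grouped by complex. Blue marks the 20 genes called lower, orange rbcL (+1.96), white the 14 not called, and crosses ndhF and ndhH, which were not tested; within photosystem II the points run from psbK (-4.25) to psbA (+1.02).

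In the cytochrome b6f complex, 3 of 6 genes were lower. petA, the gene of cytochrome f, had 17.2, 15.8 and 27.4 in exudate and 275, 129 and 164 in LMPC phloem. The groups were well apart and the replicates of each close, with a difference of -2.46 ± 0.33 (SE, adjusted p = 2.28e-05). petL, a small subunit, had 15.4, 0.8 and 7.6 against 625, 98.1 and 145 (-3.30, adjusted p = 4.39e-05).

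petB, the gene of cytochrome b6, was also lower (-1.58, adjusted p = 0.00661), a call that was lost at a pseudocount of 1, with no filter, and after spike-in scaling. petD, which encodes subunit IV, had 6.1, 7.1 and 3.9 against 55.1, 11.7 and 17.96. Its groups did not overlap, but the difference of -0.91 missed the threshold (adjusted p = 0.0661), and without LMPC array 2 it was called lower (-1.18, 0.0337), while without LMPC array 1 it stood at -0.50 (0.359). petN and petG, small subunits needed for a stable complex, were dim in both groups. petN, with 8.2, 1.4 and 14.5 in exudate against 30.8, 7.39 and 4.69, differed by -0.27 (adjusted p = 0.607) and petG by -0.29 (0.59).

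The ATP synthase had 3 lower genes of 6. atpE, which encodes the epsilon subunit of the catalytic head, had 250.4, 82.1 and 367 in exudate and 3223, 1177 and 627 in LMPC phloem. All LMPC values were higher, although the arrays of each group varied several-fold, and the difference was -2.65 ± 0.51 (SE, adjusted p = 0.000797). atpB, the gene of the catalytic beta subunit, had 31.2, 21.8 and 36.3 against 186, 48.9 and 35.3. Its groups overlapped in 1 pair of values, exudate array 3 and LMPC array 3, and the difference of -0.95 missed the threshold (adjusted p = 0.0981). Without LMPC array 3 atpB was called lower (-1.34, 0.031), and without LMPC array 1 it stood at -0.35 (0.549).

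atpF, a stalk subunit, had 0.7, 21.5 and 14.3 against 105, 51.0 and 37.1 (-1.50, adjusted p = 0.00628), and atpA, the alpha subunit, was lower by -1.33 (0.0148). Both calls depended on single arrays and on the settings. That of atpA was lost without exudate array 1 (adjusted p = 0.0536) or 2 (0.0601), without LMPC array 1 (0.0917) and after median centring (0.0542). It was also lost with a pseudocount of 1 (0.0543) or 64 (0.0737) and with no filter (0.0762). That of atpF was lost without exudate array 1 (0.0519) and with a pseudocount of 1 (0.0522). Spike-in scaling removed both calls. atpH, which encodes the ring subunit of the membrane part, was measured on all arrays at 50.7, 20.6 and 76.7 against 182, 32.2 and 63.6 and differed by -0.58 (adjusted p = 0.35). atpI, a further membrane subunit, was dim, at 0.4, 0.2 and 13.8 against 24.8, 1.48 and 15.9 (-0.51, adjusted p = 0.324).

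NDH had 1 lower gene of 5. ndhC, a membrane subunit, had 85.6, 65.5 and 345 in exudate and 1622, 1141 and 1209.7 in LMPC phloem. The LMPC arrays were close to each other for this gene and exudate array 3 stood above the other exudate arrays, with a difference of -3.20 ± 0.43 (SE, adjusted p = 2.25e-05). ndhJ, at 6.0, 28.3 and 36.9 against 54.5, 12.9 and 13.8, differed by -0.08 (adjusted p = 0.905). ndhK (-0.71, adjusted p = 0.158) was called lower without exudate array 3 (-1.11, 0.0222) and stood at -0.40 (0.513) without exudate array 1. ndhF, with signals from 0.7 to 3.8 in exudate and from 0.83 to 1.86 in LMPC phloem, and ndhH lay under the 40th percentile on all 6 arrays, so for them nothing can be said in either direction.

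rbcL ran the other way. It encodes the large, catalytic subunit of Rubisco, and its signals were 110, 131.5 and 286 in exudate against 60.8, 23.9 and 14.9 in LMPC phloem. Each exudate value was above each LMPC value, with a mean of 176 ± 96.0 against 33.2 ± 24.3. The difference was +1.96 ± 0.39 (SE, adjusted p = 0.00108), and rbcL was called higher under each of the 13 alternatives run, with differences between +1.26 with a pseudocount of 64 and +3.01 after scaling to the spike-in controls. It was highest on exudate array 3 and on LMPC array 1, as most members were, so the replicates varied alike in genes that differed in opposite directions between the groups.

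Gene span, which the choice of members did not use, went with the difference. Spans run from 90 bases in petN to 2253 in psaA in the gene table. They include introns, so they are not lengths of the coding sequence. Of the 14 genes shorter than 200 bases, 12 were lower in exudate, with a median of -2.52. Among the 9 genes from 222 to 963 bases 4 were lower (median -1.04), and among the 14 from 1062 to 2253 bases 4 were lower and rbcL was higher (median -0.30). Of these 14 long genes only 12 were tested, as ndhF and ndhH were too dim, and psaA was dim in both groups. A fall could not have shown in these dim genes, yet they enter the median of -0.30. These bins were set after the values were seen. Across the 37 genes, which share libraries and in part transcripts, Spearman's rho between span and difference was 0.50 (Pearson's r with log10 span 0.53), and within photosystem II rho was 0.64 (n = 15). Across the 32 other chloroplast genes rho was 0.21. Exceptions in both directions were psaB, long and low, and petN and petG, short with differences near 0 but dim.

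**Figure D3:**
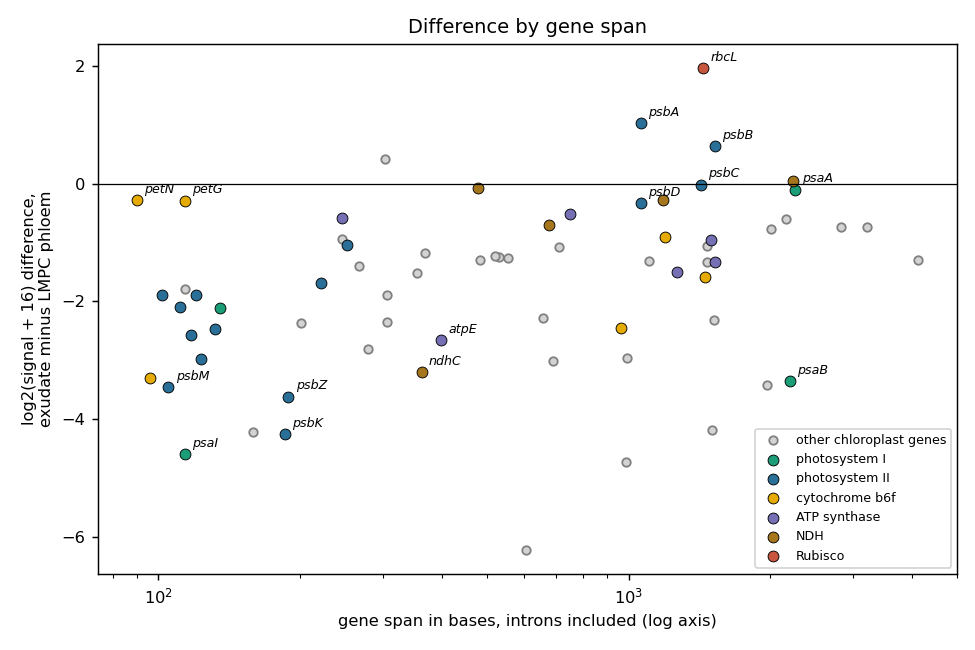
Log2(signal + 16) difference, exudate minus LMPC phloem, against gene span in bases with introns included (log axis) for the 37 members, coloured by complex, and for 32 other chloroplast genes (grey). Members under 200 bases lie below 0, rbcL, psbA and psbB above it, and psaB (-3.35) is the lowest of the long members.

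In most of the operons listed here the members did not share a call. The list held 9 operons known from textbooks, with 27 members. It may not be complete. Placed in none were psaI, psaJ, petA, psbM and psbN, all lower, and psbA, petN, rbcL, ndhF and ndhH, none of them lower. Between psaI and petA lie ycf4 and cemA, outside the rule, which were lower as well. In 8 of the 9 operons some members were called lower and others were not. Among these 9 the psbK operon was the exception, with psbK and psbI both lower. In the psbD operon psbD (-0.32) and psbC (-0.01) stood beside psbZ (-3.62), and in the psaA operon psaA (-0.10) stood beside psaB (-3.35). However, psaA was dim in both groups, as were petG and atpI, so a fall like that of psaB could not have shown in them. In the psbE operon the differences were -1.04 for psbE, -1.89 for psbF, -2.57 for psbL and -2.98 for psbJ, in the order of transcription. The last member had a lower difference than the first in 6 of the 9 operons. It had a higher one in 3, those of psbK, ndhC and petL. Genes outside the rule were not counted, so these members need not be the ends of an operon. Neighbouring genes overlap in the pairs psbD with psbC, by 53 bases, and atpE with atpB, by 4 bases, so their probe sets can read the same RNA.

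**Figure D4:**
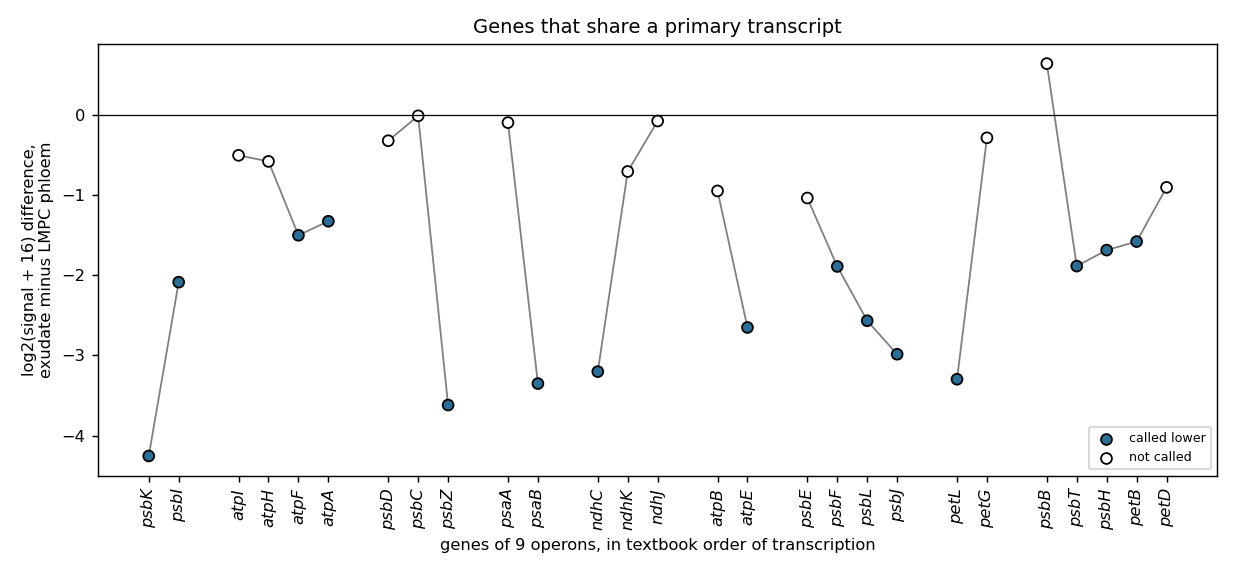
Log2(signal + 16) difference, exudate minus LMPC phloem, for 27 members in 9 operons, each operon a connected line in textbook order of transcription, blue where called lower. Lines are steep: the members of an operon span between 0.996 (atpA operon) and 3.6 (psbD operon) on this scale. The genes psaA, petG and atpI were dim in both groups.

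The rest of the chloroplast genome was lower in exudate as well. Of 32 other chloroplast genes, 24 were called lower by limma and 0 higher, with a median of -1.36, and all 3 exudate values were below all LMPC values for 27. For 1, the ribosomal protein gene rps14, they were all above, at a mean of 11.3 against 4.02, too dim to be tested. At an unadjusted p under 0.05 limma likewise gave 30 lower and 0 higher, beside 3908 lower and 1821 higher of all 15320 tested probe sets. Of the 6 photosynthesis genes left out by the rule, psaC and 5 ndh genes, 4 were lower, ndhG among them. Like psaI, ndhG and the ribosomal protein gene rpl20 passed the filter through the LMPC arrays alone, so that they had to differ. Both are among the 24.

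The nuclear genes listed with the same complexes differed in both directions. Of 14 measured, 3 were higher and 3 lower in exudate, with a median of -0.25, which is 21.4% each way beside 16.6% lower and 8.51% higher over all tested probe sets. At an unadjusted p under 0.05 limma gave 7 lower and 3 higher, beside 3908 lower and 1821 higher of all 15320 tested probe sets. The groups did not overlap for 5 lower genes and 1 higher, beside 26.5% and 8.74% of all probe sets that are not controls. In photosystem II the antenna genes LHCB4.2 (+2.37, adjusted p = 0.000373) and LHCB4.1 (+1.33, 0.0274) were higher and PSBY, a small subunit, lower (-1.12, 0.0455). The groups of LHCB4.1 overlapped. LHCB4.3, of the same family, went the other way with no overlap but was not called (-0.74, adjusted p = 0.0935). PETM, the small nuclear subunit of cytochrome b6f, was lower at a mean of 646 ± 313 against 2021 ± 1144 (-1.57, adjusted p = 0.00787), and NDHN of the NDH complex was lower by -1.34 (0.00834). ATPC1, the gamma subunit of the ATP synthase, had 176 ± 9.90 against 166 ± 84.3 and differed by +0.17 (adjusted p = 0.741). RCA, the activase of Rubisco, was higher by +1.01 (0.0482), and its groups overlapped. It is not a subunit of Rubisco, and it was the only gene measured of 5 listed there. These counts depend on few genes, as 52 of the 66 listed had no probe set named for them alone, and the number called ranged from 1 to 5 lower and 1 to 4 higher with 1 array left out. Whether the plastid and nuclear genes of a complex differ in this way was not tested.

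**Figure D5:**
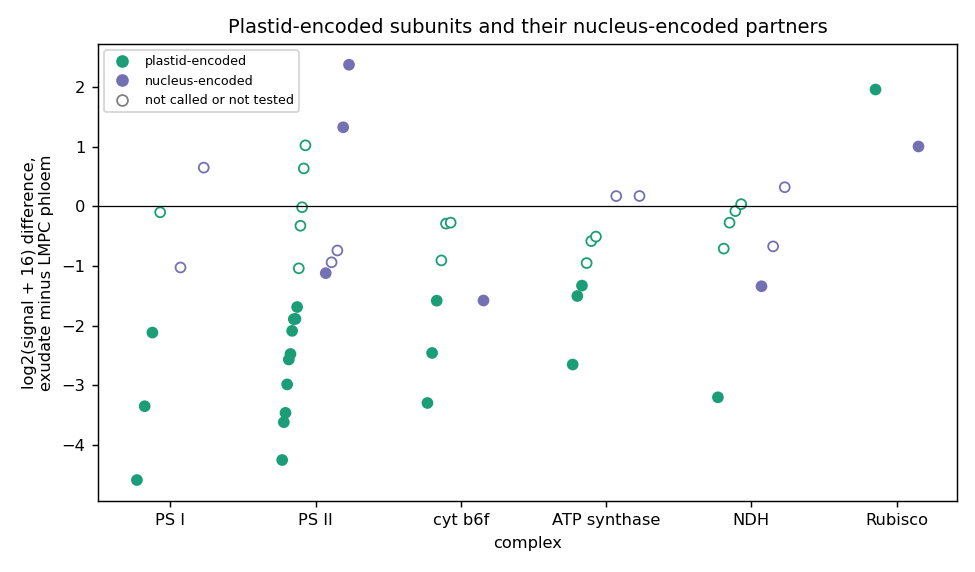
Log2(signal + 16) difference, exudate minus LMPC phloem, of plastid-encoded members (green) and nucleus-encoded genes (purple) listed with the same complex; filled points passed the test and open points did not or were not tested. The purple Rubisco point is RCA, an activase and not a subunit. Of the 37 green points 33 lie below 0, and rbcL (+1.96), psbA (+1.02), psbB (+0.64) and ndhF (+0.04, not tested) lie above; the purple points lie from -1.57 (PETM) to +2.37 (LHCB4.2).

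The placement of the members against other probe sets changed little with the scaling of the arrays, while the counts of calls did change. The median of all tested probe sets moved from -0.27 as deposited to 0.04 after median centring and 0.42 after scaling to the spike-in controls. Relative to that median the members lay at -1.23, -1.10 and -0.98. After quantile normalization 21 genes were lower and 2 higher, beside 12.4% lower and 12.9% higher over all tested probe sets. After median centring 19 were lower and 3 higher, beside 8.52% and 15.2%. After scaling to the spike-in controls 15 genes were lower, with atpA, atpF, psbF, psbH and petB lost, and psbA, psbB, psbC and rbcL were higher, beside 3.68% lower and 28.4% higher over all tested probe sets. Of the 20 genes called lower, 13 were so under every setting run: psbJ, psbK, psbL, psbM, psbN, psbT, psbZ, psaB, psaJ, petA, petL, atpE and ndhC.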

How the data were processed

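The authors deposited intensities on a linear scale, made with MAS5 per the submitters' processing notes, 1 for each probe set and array. Neither the scaling target nor the build is named in the labels, so no coordinates are printed. All exudate values were written with 1 decimal and LMPC values with more. Of 22810 probe sets 64 were controls. GEO's probe table paired 13513 with 1 gene, 503 with several and left 8730 unnamed. Genes, spans and the plastid chromosome came from RefSeq's TAIR10.1 table.

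Groups followed the sample titles (3 arrays each). The extract protocol of the LMPC samples speaks of exudate, which conflicts with their titles. Limma 3.58.1 (lmFit, eBayes) was run in R 4.3.3 on log2(signal + 16) over all tested probe sets, with no covariate, and was tested on simulated data. The number of arrays limits the precision. Alternatives were quantile normalization, median centring and spike-in scaling (both applied to the linear signal), pseudocounts of 1 and 64, no filter, a replicate block and each array left out.

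Members and lists were chosen with earlier results of these data known. Named with values were psbA, psbD, psaA, petA, atpB, ndhF and rbcL, and in each complex the 2 largest falls called, each called rise, the highest mean signal and the smallest difference. Other members named were chosen after their values were seen.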

Additional observations from a re-analysis of the deposited data

How the results depend on the processing

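As deposited, 20 members were lower and 1 higher, and the median was -1.50. With 1 array left out the counts ran from 18 to 22 lower and from 1 to 2 higher, and the median from -1.70 to -1.16. Higher counts were 2 after quantile normalization (psbA and rbcL), 3 after median centring and 4 after scaling to the spike-in controls. The median of all members was -0.57 after spike-in scaling, -2.16 with a pseudocount of 1 and -0.73 with one of 64. By complex, spike-in scaling gave medians of -1.67 in photosystem I, -1.10 in photosystem II, -0.36 in cytochrome b6f and -0.39 in the ATP synthase. A pseudocount of 1 gave -1.84 in cytochrome b6f, -1.98 in the ATP synthase and -1.26 in NDH, and one of 64 gave -1.86 in photosystem I and -0.63 in the ATP synthase; the pseudocount changes the scale itself. Other chloroplast genes had 13 lower calls after spike-in scaling and from 17 to 26 with 1 array left out. Of the 14 nuclear genes, 1 was lower after median centring, with a pseudocount of 1 and with no filter, and 0 after spike-in scaling; 6 were higher after spike-in scaling and 1 with either other pseudocount and with no filter. With 1 array left out 1 to 5 of them were lower and 1 to 4 higher. The causes were not tested.

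Members that were not called as deposited changed sign as follows. After spike-in scaling atpH stood at 0.43, petN at 0.16, psbD at 0.69, psbC at 0.99, psaA at 0.42, ndhJ at 0.70, ndhK at 0.10, atpB at 0.0527 and petG at 0.10, and psbC alone of these was then called. After median centring psbD stood at 0.14, psbC at 0.44, psaA at 0.14 and ndhJ at 0.26, and after quantile normalization psbC at 0.14, psaA at 0.15 and ndhJ at 0.13. With a pseudocount of 1 psbC was at 0.0039. With 1 array left out psbC ran from -0.37 to 0.46, psaA from -0.36 to 0.0812, ndhJ from -0.33 to 0.34 and petG from -0.58 to 0.0669. None of the 20 members called lower changed sign under any of the 13 alternatives, and 13 of them were called lower under each. Photosystem I gene psaI was not tested when any LMPC array was left out, because it then missed the filter.

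Replicate numbers do not pair the arrays by the labels, and same-numbered arrays did not deviate together (correlations -0.004, -0.016 and -0.074 over tested probe sets). With the replicate number as a block 20 members were lower and 1 higher, and calls over all probe sets fell to 3427 from 3853. They were 2359 without the first exudate array. Detection calls were not used here, so a dim signal has no stated limit.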

Other observations

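A few plastid genes outside the rule, chosen after their values were seen, were placed as follows on the same scale. ccsA, which attaches haem to cytochrome c-type proteins such as cytochrome f, differed by -4.72 (limma adjusted p = 3.05e-07). ycf4, an assembly factor of photosystem I, was lower by -1.26 (adjusted p = 0.0371), and ycf3, which acts in the same assembly, was at -0.77 and not called (adjusted p = 0.133). cemA, which encodes a protein of the chloroplast envelope, differed by -3.01 (adjusted p = 2.42e-05).

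The probe set for both copies of ndhB had signals of 1.4, 8.5 and 3.2 in exudate and 15.4, 9.48 and 6.19 in LMPC phloem. It did not pass the filter on dim signals and was not tested.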
